A study of Mus musculus with 6 samples.

Results

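The cysteine-rich secretory proteins (CRISPs) of the mouse are encoded by Crisp1, Crisp2, Crisp3 and Crisp4. The genes were taken by name, and all 4 were found among the 23229 annotated genes of the count tables and in the authors' RPKM table, whose values are corrected for gene length and sequencing depth. RNA came from sucrose-fractionated sperm nuclei, in 2 preparations called nuclei 1 and nuclei 2, and from whole sperm, in 1 preparation. All sperm came from the cauda epididymis and vas deferens of individual C57BL/6 mice, 4 months old, of the transgenic line HP3.1, so every group carries the transgene, whose content is not given in the sources used here. Nuclei had been freed by sonication and spun through sucrose and caesium chloride with Triton X-100, whereas whole sperm skipped those steps. Each preparation was sequenced in 2 runs, which share 1 column of values. Which animal gave which preparation is not given in the sources used here, so the spread between nuclei 1 and nuclei 2 may be technical, and whole sperm has no spread of its own. In RNA from many cells, fewer cells of a type and less RNA per cell cannot be told apart.

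CRISPs belong to the CAP superfamily, proteins that pair a CAP domain with, in the CRISPs, a cysteine-rich tail that can act on ion channels. CRISP1 and CRISP4 are made by the epithelium of the epididymis under androgen control and coat sperm as they pass through the duct. CRISP2 is made in the testis by developing sperm cells and is built into the acrosome and the tail. Mouse CRISP3 is best known from the salivary gland. A sperm library can therefore hold a CRISP transcript made inside the germ cell (Crisp2) beside transcripts made by the duct around it (Crisp1 and Crisp4).

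Crisp1 (build mm10, chromosome 17, 40293758 to 40319207, minus strand, 8 exons) and Crisp3 (chromosome 17, 40221777 to 40242288, minus strand, 8 exons) lie side by side, 51.5 kb apart, and are close copies of each other. Crisp2 (chromosome 17, 40764020 to 40807003, minus strand, 10 exons) lies farther along the chromosome, and Crisp4 (chromosome 1, 18115191 to 18145902, minus strand, 7 exons) stands apart. The positions are those of GENCODE vM21, and no other annotated gene overlapped any of the 4. The 250 bases before the RefSeq start of Crisp1 and Crisp3 (GRCm38.p6) are shown because the genes share nearly all of this sequence while their counts differed widely. They were identical at 239 of 250 positions, and capitals mark the 11 positions that differ.
Crisp1, chr17:40319208-40319457, minus strand: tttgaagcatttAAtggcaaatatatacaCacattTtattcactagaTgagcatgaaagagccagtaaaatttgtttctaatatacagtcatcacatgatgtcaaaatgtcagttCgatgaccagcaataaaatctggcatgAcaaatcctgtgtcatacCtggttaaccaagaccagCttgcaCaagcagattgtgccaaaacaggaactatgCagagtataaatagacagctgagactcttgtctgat
Crisp3, chr17:40242289-40242538, minus strand: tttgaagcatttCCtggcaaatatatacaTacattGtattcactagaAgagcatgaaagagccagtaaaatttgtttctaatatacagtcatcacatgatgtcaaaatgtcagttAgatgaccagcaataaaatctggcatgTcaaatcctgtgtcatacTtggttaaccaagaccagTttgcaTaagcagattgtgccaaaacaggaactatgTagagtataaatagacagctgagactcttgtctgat

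Both windows held the TATA box letters TATAAA beginning 31 bases before the start, in sequence that did not differ between them. On either strand, the Crisp2 window held those letters too and the Crisp4 window did not, against 12.4% of the 32851 windows of this length. The androgen receptor half-site TGTTCT was found on either strand in the Crisp4 window and not in the other 3, against 16.1% of all windows. The full cAMP response element TGACGTCA was in no CRISP window and in 1.55% of all windows. A match describes letters only. Against the other family members, the Crisp1 window was identical at 70 positions (Crisp2) and 61 positions (Crisp4) of 250, without gaps. The Crisp2 window (chromosome 17, 40794147 to 40794396) lay inside the GENCODE gene, at a RefSeq start within it. The other windows lay directly before their GENCODE genes.

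How multiply mapped reads were counted is not given in the sources used here, so counts of Crisp3, the rarer copy, are uncertain where it matches Crisp1. The Crisp1 transcript has 1416 bases and that of Crisp3 1417, and they were identical at 91.1% of 1397 aligned bases. Of the 1367 stretches of 50 bases in the Crisp1 transcript, 33 (2.41%) also occur without change in Crisp3. No stretch of 50 bases was shared by any other pair of members. The coding stretch that Crisp1 and Crisp3 share is shown because a read inside it fits either gene; it has 57 bases and runs from exon 4 into exon 5 of Crisp1 (chromosome 17, between 40305202 and 40307742, minus strand).
Crisp1 and Crisp3: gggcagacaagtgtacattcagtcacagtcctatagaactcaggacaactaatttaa

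Levels of the 4 genes spanned several orders of magnitude by the authors' RPKM. Nuclei 1 had 165 RPKM of Crisp1, 9.20 of Crisp2, 0.790 of Crisp3 and 0 of Crisp4, and nuclei 2 had 203, 23.2, 0.0248 and 0.924 RPKM of the same genes. Whole sperm had 3542 RPKM of Crisp1, 64.5 of Crisp2, 0.321 of Crisp3 and 0.0786 of Crisp4. Crisp1 and Crisp2 therefore kept the first and second place in every library, while Crisp3 and Crisp4 changed places between the nuclei libraries. In nuclei Crisp3 averaged 0.408 ± 0.541 RPKM and Crisp4 0.462 ± 0.653 RPKM (SD, n = 2), so these neighbours in the order did not differ beyond their spread. By RPKM, Crisp1 ranked 29 and 46 among annotated genes in nuclei 1 and nuclei 2, and 3 in whole sperm.

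**Figure D1:**
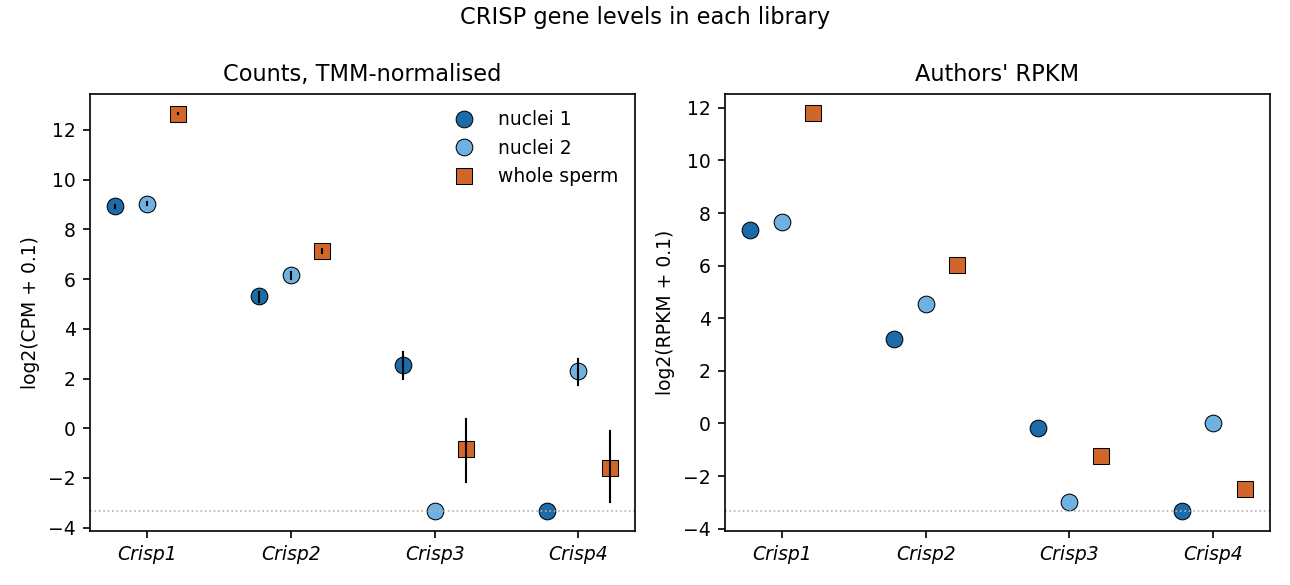
Levels of Crisp1 to Crisp4 in nuclei 1, nuclei 2 (circles) and whole sperm (squares), as log2(CPM + 0.1) of TMM-normalised counts on the left, with exact Poisson 95% intervals as bars, and as log2(RPKM + 0.1) on the right. The dotted line marks a value of 0; Crisp1 in both nuclei libraries lies below whole sperm, and Crisp3 and Crisp4 each have a library at a count of 0.

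Crisp1 was far scarcer in nuclei than in whole sperm. It had 2556 counts in nuclei 1 and 3504 in nuclei 2, compared with 55869 in whole sperm. As CPM, counts scaled to a common library total, with TMM scaling, which evens out the composition of the libraries, that was 488 and 525 CPM in nuclei, against 6452 CPM in whole sperm. The nuclei libraries lay close together and both were far below whole sperm, by 13.2-fold for nuclei 1 and 12.3-fold for nuclei 2. As a share of all counts in genes and assembled regions, Crisp1 took 0.0466% (exact Clopper-Pearson 95% interval 0.0448 to 0.0484) in nuclei 1 and 0.0527% (0.0510 to 0.0545) in nuclei 2, compared with 0.672% (0.666 to 0.677) in whole sperm. Intervals here cover counting error only.

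Crisp1 was the 1 member that passed the test. Its log2 fold change was -3.67 ± 0.87 (SE; edgeR quasi-likelihood test, adjusted p = 0.0241, n = 2 against 1), and its mean in nuclei was 507 ± 26.5 CPM (SD, n = 2). Across all 16720 rows tested, 0.0957% were called lower in nuclei and 0.0658% higher, at an adjusted p under 0.05. Among the 4218 genes with a mean of at least 20 CPM, 37 (0.877%) had a lower log2 fold change than Crisp1. The call was lost under some settings: with library sizes alone the log2 fold change was -3.76 at an adjusted p of 0.0900, and among rows of at least 10 CPM it was -3.75 at an adjusted p of 0.491, both by edgeR. The fit among rows of at least 10 CPM called no row in either direction. DESeq2 gave -3.62 (adjusted p = 1.49e-10), with 0.215% of rows called lower.

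In the authors' RPKM the same difference was larger. Crisp1 averaged 184 ± 27.0 RPKM in nuclei (SD, n = 2) and 3542 RPKM in whole sperm, 19.2-fold lower in nuclei, against 12.7-fold lower in CPM. On log2(RPKM + 0.1) limma gave a difference of -4.27 (adjusted p = 0.163), which did not pass. The limma fit called no row in either direction. The RPKM columns and the count columns do not follow from each other by a single factor per library, so the values are given side by side.

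Crisp2, the testicular member, also lay lower in nuclei but did not pass the test. It had 206 counts in nuclei 1 and 472 in nuclei 2, compared with 1216 in whole sperm, or 39.3 and 70.8 CPM against 140 CPM. Both nuclei libraries were below whole sperm and differed from each other by more than their counting error, with exact Poisson 95% intervals of 34.1 to 45.1 CPM in nuclei 1 and 64.5 to 77.4 CPM in nuclei 2. The log2 fold change was -1.35 ± 0.83 (SE; edgeR adjusted p = 0.909, n = 2 against 1), from -1.84 with nuclei 1 alone to -0.99 with nuclei 2 alone. Of the genes with a mean of at least 20 CPM, 15.6% had a lower log2 fold change than Crisp2. In RPKM, Crisp2 averaged 16.2 ± 9.87 in nuclei (SD, n = 2) and 64.5 in whole sperm.

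Scaling by the synthetic spike-in RNAs in place of TMM moved all genes together. The median log2 fold change of all rows tested was -1.16 with that scaling, against 0.27 with TMM. Crisp1 then stood at -5.11 (edgeR adjusted p = 5.20e-08) and Crisp2 at -2.79 (adjusted p = 0.0187), so that Crisp2 passed as well, where 3.26% of rows were called lower. Relative to the median of all rows, Crisp1 lay at -3.94 under both scalings, and Crisp2 at -1.63 with spike-ins and -1.62 with TMM. The spike-in scaling assumes that each preparation received the same amount, which the sources used here do not give.

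**Figure D2:**
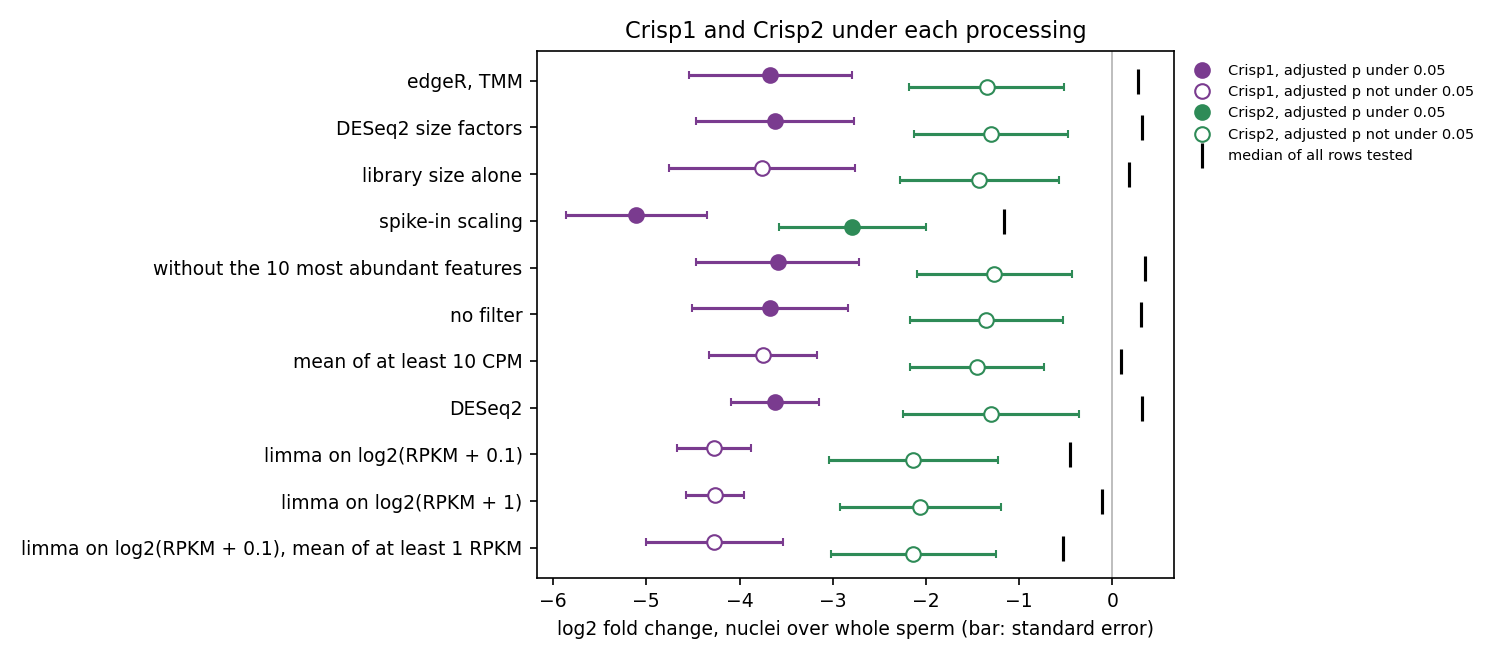
Log2 fold change of nuclei over whole sperm for Crisp1 and Crisp2 under each processing, with standard errors as bars, those of edgeR derived from its test statistic. Filled points had an adjusted p under 0.05, open points did not, and black ticks mark the median of all rows tested. Crisp1 lies between -5.11 and -3.59 and Crisp2 between -2.79 and -1.27 in every setting shown.

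The ratio of the epididymal to the testicular member within a library needs no scaling between libraries. There were 12.4 Crisp1 counts for each Crisp2 count in nuclei 1 and 7.42 in nuclei 2, compared with 45.9 in whole sperm. Both nuclei libraries lay below whole sperm, and they differed less from each other than from whole sperm. On the log2 scale the ratio was 3.26 ± 0.52 in nuclei (SD, n = 2) and 5.52 in whole sperm, a difference of -2.26. An exact two-sided permutation test over the 3 preparations gave p = 0.333, the smallest that 2 against 1 can give, so the test cannot pass. In RPKM the difference was -2.13. Crisp2 accordingly held 7.38% of all CRISP counts in nuclei 1 (exact 95% interval 6.44 to 8.41) and 11.8% in nuclei 2 (10.8 to 12.8), compared with 2.13% in whole sperm (2.01 to 2.25).

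**Figure D3:**
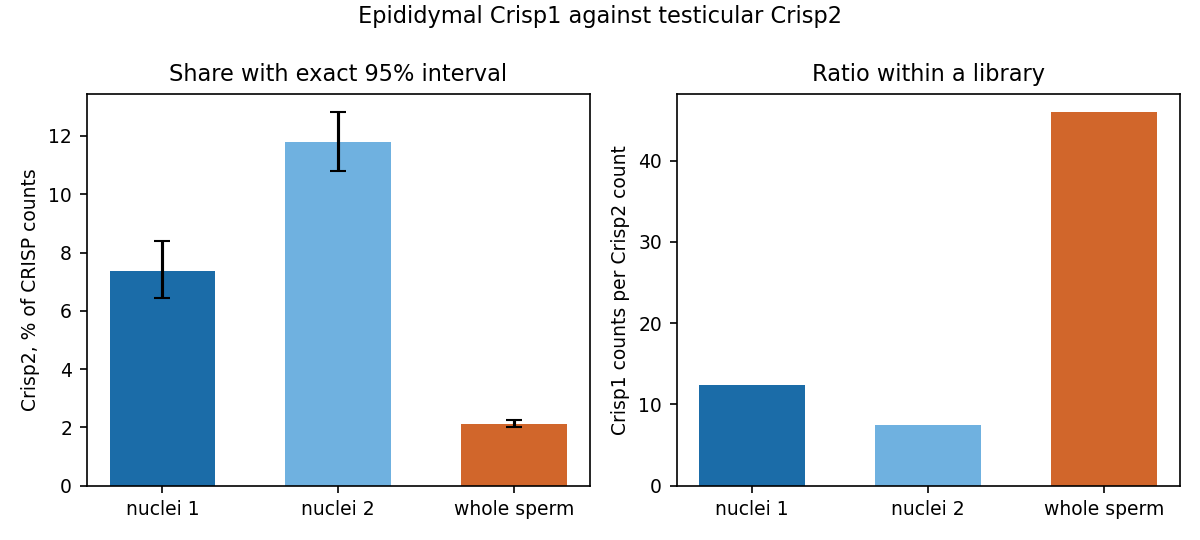
Left, Crisp2 counts as a percentage of all CRISP counts in nuclei 1, nuclei 2 and whole sperm, with exact Clopper-Pearson 95% intervals as bars; right, Crisp1 counts per Crisp2 count in the same libraries. The Crisp2 share is 7.38% and 11.8% in nuclei and 2.13% in whole sperm, and the ratio is 12.4 and 7.42 in nuclei against 45.9 in whole sperm.

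Crisp3, the close copy of Crisp1, was scarce and was counted mostly in 1 nuclei library. It had 30 counts in nuclei 1 and 0 in nuclei 2, compared with 4 in whole sperm. The highest library was therefore 1 nuclei preparation and the lowest was the other, with whole sperm between them. It passed the edgeR filter on low counts through nuclei 1 alone. Its fitted log2 fold change was 2.58 ± 6.41 (SE; edgeR adjusted p = 0.995, n = 2 against 1), and by RPKM nuclei averaged 0.408 against 0.321 in whole sperm. For each 100 Crisp1 counts there were 1.17 Crisp3 counts in nuclei 1 and 0 in nuclei 2, compared with 0.00716 in whole sperm, so Crisp3 counts did not follow those of Crisp1 from library to library. Where nuclei 2 had no Crisp3 count, the RPKM table still listed 0.0248 RPKM.

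Crisp4, the second epididymal member, was scarce in the same way with the nuclei libraries exchanged. It had 0 counts in nuclei 1 and 32 in nuclei 2, compared with 2 in whole sperm. It passed the filter through nuclei 2 alone, and its fitted log2 fold change was 3.28 ± 6.79 (SE; edgeR adjusted p = 0.989, n = 2 against 1). A count of 30 or so in only 1 of the nuclei libraries was common: of 2879 genes with 20 to 50 counts in nuclei 1, 28.1% had none in nuclei 2, and of 2009 such genes of nuclei 2, 19.7% had none in nuclei 1. With 2 counts in 8316345, Crisp4 held at most 8.69e-05% of whole-sperm counts (upper end of the exact 95% interval), whereas Crisp1 held 0.672%. Of the epididymal members, Crisp1 was thus among the most abundant transcripts of whole sperm, and Crisp4 was counted there only 2 times.

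Other products of the epididymal epithelium were measured beside Crisp1. Of 29 listed genes in the table, 17 were tested and 16 lay below 0, with a median log2 fold change of -2.06 against 0.27 for all rows. The 1 gene that passed the test as lower was the protease inhibitor gene Spink10 (43.9 and 29.5 CPM in nuclei, 361 CPM in whole sperm, edgeR adjusted p = 0.0158). Of all rows tested, 0.0957% were called lower. Crisp1 lay below the median of these genes, and 3 of the 17 (Gpx5, Lcn2 and Eppin) had a lower log2 fold change than Crisp1. Spink10 and these genes are named after their values were seen. The most abundant of them were Cd52, a small surface glycoprotein gene, at 678 and 750 CPM in nuclei against 1757 CPM in whole sperm, and Serpina1f, a serpin gene, at 423 and 232 CPM against 1562 CPM. In whole sperm Crisp1 alone (55869 counts) had more counts than the 29 genes together (54236). For each 1000 counts of the list, Crisp1 had 269 in nuclei 1 and 292 in nuclei 2, compared with 1030 in whole sperm. Crisp1 was thus scarcer in nuclei also relative to the summed counts of this list, in both nuclei libraries. That sum is weighted towards abundant genes such as Cd52 and Serpina1f. Gpx5, the secreted epididymal glutathione peroxidase gene, had 0 and 0 counts in nuclei against 88 in whole sperm, at least 19.9-fold lower in nuclei against a floor of 3 counts per library.

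Among the same genes, 9 had a count of 0 in every library, namely Lcn5, Lcn6, Lcn8, Lcn10, Rnase10, Cst12, Defb15, Defb20 and Spag11b. By RPKM, Spag11b had 0.0269 in whole sperm. Of 10 markers of epithelial cells in general, 7 were below 0 and 3 above, with a median log2 fold change of -1.44. Their summed level was 121 and 164 CPM in nuclei, against 454 CPM in whole sperm. None of these markers passed the test, where 0.0957% of all rows were called lower and 0.0658% higher. Cdh1, the epithelial cadherin gene, was at 19.1 and 20.4 CPM in nuclei, against 122 CPM in whole sperm. Krt19, a keratin gene, was at 13.5 and 41.4 CPM in nuclei, against 70.5 CPM in whole sperm. The 3 markers above 0, named after their values were seen, were Elf3 (log2 fold change 2.25), Krt7 (1.52) and Cldn3 (0.17). None of the 10 was at 0 in every library, and the part of these cells in the Crisp1 difference was not tested. Leukocyte markers summed to 23.9 and 12.6 CPM in nuclei against 33.0 CPM in whole sperm, with Itgam and S100a8 the most abundant. Of the 6 tested, 5 lay below 0 and 1 above, with a median log2 fold change of -1.42. Smooth muscle and stroma markers summed to 168 and 94.9 CPM in nuclei against 150 CPM in whole sperm, with Myh11 and Col3a1 the most abundant and Des at 0 throughout. Of the 9 tested, 5 lay below 0 and 4 above, with a median log2 fold change of -1.66. A median below 0 was thus not particular to epithelial markers. Salivary and lacrimal gland genes, listed because Crisp3 is known from such glands, were at 0 in every library for 8 of 10. The mucin gene Muc19 had 58 counts and the amylase gene Amy1 had 3, all in nuclei 1. By RPKM, Amy1 also had 0.0705 in whole sperm. Most Crisp3 counts were in nuclei 1 too, and a link between these counts was not tested.

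Crisp2 was set beside 20 genes of round and elongating spermatids, the cells that make it. Of these, 13 lay above 0 and 7 below, with a median log2 fold change of 0.92 against 0.27 for all rows. None passed the test, where 0.0957% of all rows were called lower and 0.0658% higher. The most abundant were the transition protein genes Tnp1 (1451 and 802 CPM in nuclei, 574 CPM in whole sperm) and Tnp2 (1032 and 1417 CPM in nuclei, 304 CPM in whole sperm). Of the 20, only Zpbp, an acrosomal zona-binding protein gene named here after its values were seen, had a lower log2 fold change (-2.04) than Crisp2 (-1.35). For each 1000 counts of the spermatid genes there were 7.06 Crisp2 counts in nuclei 1 and 13.5 in nuclei 2, compared with 46.9 in whole sperm. Crisp2 was thus lower in nuclei relative to the summed counts of these genes in both nuclei libraries. That sum is weighted towards abundant genes such as Tnp1 and Tnp2, so it does not compare Crisp2 with each of the 20. No test was run, since 2 preparations against 1 cannot give an exact p under 0.333.

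**Figure D4:**
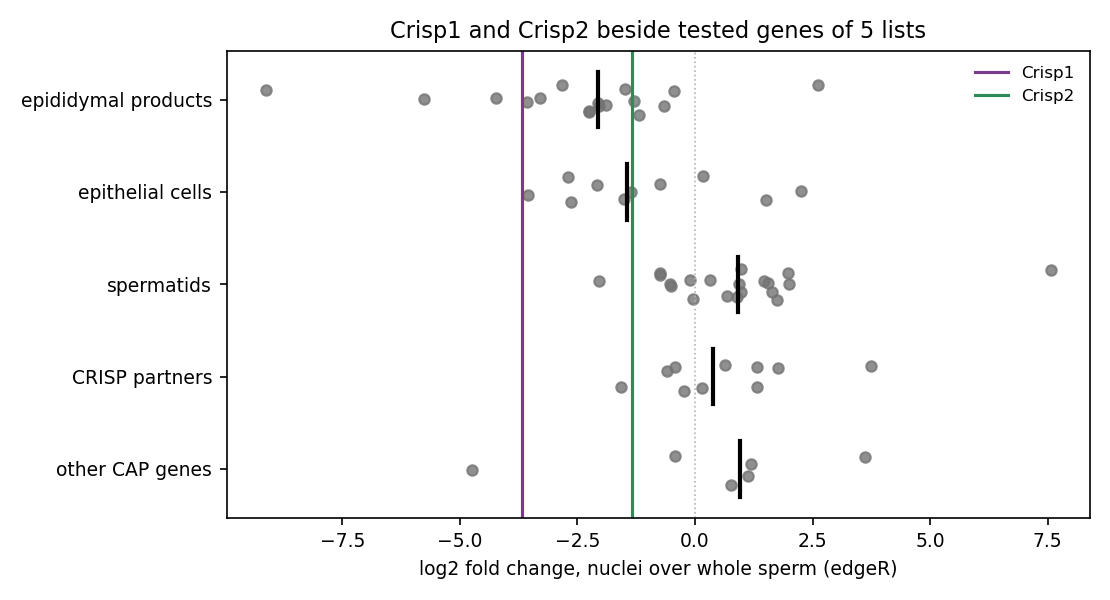
Log2 fold change of nuclei over whole sperm (edgeR) for each tested gene of 5 lists, 1 point a gene with vertical scatter for legibility, black bars at list medians, and lines at Crisp1 (-3.67) and Crisp2 (-1.35). The epididymal genes have a median of -2.06 and the spermatid genes of 0.92; points of genes at 0 in a group depend on the prior count and are no bounds.

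Genes whose products are reported to bind CRISPs or to be channels that CRISPs act on were present at modest levels. Of 11 listed, 10 were in the table and tested, 6 lay above 0 and 4 below, and the median log2 fold change was 0.39. None was called in either direction, where 0.0957% of all rows were called lower and 0.0658% higher. Trpm8, a cold-activated cation channel that CRISP4 can block, was at 59.3 and 148 CPM in nuclei against 41.3 CPM in whole sperm (edgeR adjusted p = 0.909). Ryr1, a ryanodine receptor of calcium stores, was at 43.7 and 38.8 CPM in nuclei against 122 CPM in whole sperm (adjusted p = 0.909), and Ryr2 and Ryr3 at means of 17.4 and 8.34 CPM in nuclei against 23.2 and 3.35 CPM. Nuclei libraries lay on 1 side of whole sperm for Trpm8, Ryr1 and Ryr3 (4.39 and 12.3 CPM). They lay on either side of it for Ryr2 (27.9 and 6.90 CPM).

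The sperm calcium channel genes showed no shared direction. Catsper1, a pore subunit gene whose product binds CRISP2, was at 18.7 and 8.10 CPM in nuclei against 3.93 CPM in whole sperm. Catsper2 was at 31.7 and 46.5 CPM in nuclei against 35.2 CPM, Catsper3 at 0 and 9.74 CPM against 0.346 CPM, and Catsper4 at 10.3 and 6.90 CPM against 12.9 CPM. Of the CRISP2 partners outside the channels, the gametogenetin gene Ggn was at 94.7 and 40.2 CPM in nuclei against 43.4 CPM, and the kinase gene Map3k11 at 0.763 and 46.5 CPM against 27.8 CPM. The nuclei libraries of Map3k11 stood on either side of whole sperm.

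Relatives of the CRISPs in the CAP superfamily were rare. Of 11 listed, 10 were in the table, and 4 of these (Crispld2, Glipr1, R3hdml and Clec18a) were at 0 in every library. The 6 tested had a median log2 fold change of 0.95, with 4 above 0 and 2 below. None of the 6 was called, where 0.0957% of all rows were called lower and 0.0658% higher. Their counts summed to 93 and 236 in nuclei against 151 in whole sperm, where the 4 CRISPs had 57091. Glipr2, a Golgi-associated CAP protein gene, had 25 and 89 counts in nuclei against 36 in whole sperm. Pi15, a secreted peptidase inhibitor gene, had 45 and 64 counts in nuclei against 46 in whole sperm. Glipr1l1, known from testis and sperm, had 1 and 41 counts in nuclei against 37 in whole sperm, and its sister gene Glipr1l2 had 0 and 1 counts in nuclei against 22 in whole sperm. Crispld1 had 20 and 15 counts in nuclei against 2 in whole sperm, and Pi16 had 2 and 26 against 8.

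Most annotated genes within 200 kb of a CRISP gene were not in the count table. Of those that are not CRISPs, only Pgk2, Mut and 9130008F23Rik were tested, and none was called. With 0.0957% of all rows called lower and 0.0658% higher, so few tests say little about the neighbours. Pgk2, the germ cell phosphoglycerate kinase gene 13.1 kb from Crisp3 and 85.1 kb from Crisp1, had 153 and 56 counts in nuclei against 167 in whole sperm (log2 fold change -0.04, edgeR adjusted p = 1.000). Near Crisp2, the gene of methylmalonyl-CoA mutase, Mut, had 40 and 4 counts in nuclei against 358 in whole sperm (edgeR adjusted p = 0.909), and 9130008F23Rik had none in either nuclei library against 84 in whole sperm (adjusted p = 0.909). Near Crisp4, the genes of the count table within 200 kb were at 0 in every library. None of the authors' assembled regions lay within 200 kb of a CRISP gene.

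The genes with levels most like those of Crisp1 over the 3 libraries, by Euclidean distance of log2(CPM + 1) among 4217 other genes of at least 20 CPM on average, were Akr1b7, Eef1a1 and Cd52. Akr1b7, an aldo-keto reductase gene of the vas deferens, was the nearest at a distance of 1.02, with 817 and 836 CPM in nuclei against 5560 CPM in whole sperm. Eef1a1, translation elongation factor 1 alpha, followed at 1.77, and Cd52 at 2.00. The 3 nearest to Crisp2 were AI314180, Wdpcp and Ctsd at distances of 0.168, 0.231 and 0.240; Ctsd encodes the lysosomal protease cathepsin D and had 45.0 and 72.3 CPM in nuclei against 127 CPM in whole sperm. With 3 libraries this measure describes likeness of level only.

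An adjusted whole-sperm column was also deposited by the authors. All 25610 of its values were, within 0.5, what remains of a whole-sperm count after the nuclei average is taken away, with 0 as the lowest value. Crisp1 kept 52839 of 55869 counts there (94.6%), and Crisp2 kept 877 of 1216 (72.1%). Crisp3 and Crisp4 were set to 0, since their mean nuclei counts of 15 and 16 were above the 4 and 2 counts of whole sperm.

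Library totals in genes and assembled regions were 5487306 and 6648848 counts in nuclei against 8316345 in whole sperm. Germ cell transcripts were present in every library, with the protamine gene Prm2, which the submitters amplified as their RNA check, at 592 and 431 CPM in nuclei against 319 CPM in whole sperm, and the spermatid list held 0.532% and 0.527% of counts in nuclei against 0.312% in whole sperm.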

How the data were processed

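The authors deposited whole-number read counts per gene and assembled region for each preparation, without normalization. The submitters' processing notes name TopHat2 2.0.12, Cufflinks 2.1.1 and HTSeq, beside CASAVA 1.8.2, bedtools, DESeq2 and SAMtools 0.1.19, and build mm10. What each tool did, and the strand setting, is not given in the sources used here. Without strand, reads of a gene and an antisense partner cannot be told apart. RPKM values, 1 column per preparation, and the adjusted whole-sperm column, handled as a score, were also deposited by the authors.

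Spike-ins and reads outside features (34.4% of the whole-sperm table) or ambiguous (1.97%) stayed out of library sizes and tests. All 25610 shared rows entered edgeR 4.0.16 (R 4.3.3; TMM, filterByExpr, quasi-likelihood test, Benjamini-Hochberg over 16720 rows, threshold 0.05). The fit has 1 residual degree of freedom and an infinite prior, so its errors rest on a spread pooled over rows (common biological coefficient of variation 1.30), and whole sperm, with 1 library, is taken to vary as nuclei do. DESeq2 1.42.0 and limma 3.58.1 on log2(RPKM + 0.1) were alternatives. Each test was tried on simulated counts of far smaller spread than that fitted here, with limma on scaled counts in place of RPKM. Those trials do not show how the tests perform on these data. The SE given with edgeR is the absolute log2 fold change divided by the square root of the test's F statistic. GENCODE vM21 held the positions. Transcripts were aligned with Biopython 1.88. Promoter windows are RefSeq's.

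The members and gene lists were chosen with earlier results of these data known. Named were the 4 members, relatives, partners and neighbours within 200 kb with at least 20 counts in a library, the 3 nearest patterns, and up to 2 genes of each marker list by mean CPM; any other gene was named after its values were seen.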

Additional observations from a re-analysis of the deposited data

How the results depend on the processing

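Crisp1 kept its direction in every alternative and its call under DESeq2 size factors, spike-in scaling, without the 10 most abundant features, with no filter, and in DESeq2. It was not called with library size alone (log2 fold change -3.76, edgeR adjusted p = 0.0900), at a mean of at least 10 CPM (-3.75, adjusted p = 0.491), or by limma on log2(RPKM + 0.1) (-4.27, adjusted p = 0.163; 0.726 at a mean of at least 1 RPKM) and on log2(RPKM + 1) (-4.26, adjusted p = 0.167); its adjusted p ran from 1.49e-10 (DESeq2) to 0.726, and the cause was not tested. From nuclei 1 alone it was -3.73 and from nuclei 2 alone -3.62. Crisp2 was called with spike-in scaling only (-2.79). Crisp3 (2.58 by edgeR) turned to -0.34 by limma on log2(RPKM + 0.1) and was 0.036 with the larger pseudocount, 1.20 with spike-ins and 3.63 from nuclei 1 alone. Crisp4 (3.28 by edgeR) was 0.84 and 0.36 by limma with the smaller and larger pseudocount, 1.89 with spike-ins and 4.38 from nuclei 2 alone; DESeq2 gave neither an adjusted p, and the filters of 10 CPM and 1 RPKM removed both. The Crisp4 to Crisp2 ratio had no value without an added 0.5, since nuclei 1 had no Crisp4 count. Genes called higher and lower numbered 4 and 16 by edgeR, 2 and 13 with library size alone, 1 and 527 with spike-ins and 97 and 33 by DESeq2. They numbered 0 and 0 by edgeR at a mean of at least 10 CPM (346 and 269 at an unadjusted p under 0.05) and 0 and 0 by limma (142 and 2467, 100 and 3027 with the larger pseudocount, 46 and 265 at 1 RPKM). No paired analysis was possible because whole sperm has 1 preparation. The floor of 3 counts per library stood for 0.572 CPM in nuclei 1 and 0.450 CPM in nuclei 2; the exact Poisson 95% upper limit of a count of 0 is 3.69 counts.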
